A study of Homo sapiens with 9 samples.

Results

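The genes described here are 10 ligand genes, HBEGF, AREG, EREG, TGFA, NRG1, LIF, IL11, FGF2, PDGFA and GDF15, followed in A375R cells after 2 h with a PROTAC-like molecule, with its VHL-binding moiety alone or with solvent. They were taken by gene symbol from the 62710 genes of the deposited table, and each symbol matched 1 row. A375R is a derivative of the human melanoma line A375 with resistance to the BRAF inhibitor PLX4032, and it was cultured with 2 µM of that inhibitor, which was therefore part of the culture of all 3 groups. Cells received DMSO, 10 µM VHL-r, which recruits the ubiquitin ligase VHL, or 10 µM R4VPL3-1, which joins that moiety through a linker to a binder of the ubiquitin ligase RNF4. Each treatment had 3 libraries that the study describes as independent biological repeats, and RNA was measured by poly(A) sequencing. The control libraries are labelled as wild type with no dose or time in their titles, and the series' design text names the control as DMSO. All 9 libraries come from a single resistant line, and no parental A375 cells are part of the comparison.

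Secreted ligands of these families carry signals between cells and back to the cell that made them. EGF-family ligands are made as membrane-bound precursors, are cut free by ADAM proteases and activate EGFR and its ERBB relatives, which feed the RAS-ERK pathway. LIF and IL11 signal through the shared subunit gp130 to STAT3, FGF2 and PDGFA act on FGF and PDGF receptor tyrosine kinases, and GDF15 is a stress-induced member of the TGF-beta superfamily. In BRAF-mutant melanoma, ligands of this kind are known as a route by which cells keep ERK or parallel signaling active under BRAF inhibition.

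The sequence just before the transcription start was read from RefSeq windows on GRCh38.p14, and 8 of the 10 genes had an entry. Of these, 2 are shown, 250 bases each: HBEGF, the ligand gene that rose with both compounds, and AREG, an EGF-family relative whose values did not pass the test. Capitals mark matches to a GC box (GGGCGG), to a cAMP response element (CRE, TGACGTCA) and to a TATA box (TATAAA), and a match is a description of letters only.
HBEGF, chr5:140346604-140346853, minus strand: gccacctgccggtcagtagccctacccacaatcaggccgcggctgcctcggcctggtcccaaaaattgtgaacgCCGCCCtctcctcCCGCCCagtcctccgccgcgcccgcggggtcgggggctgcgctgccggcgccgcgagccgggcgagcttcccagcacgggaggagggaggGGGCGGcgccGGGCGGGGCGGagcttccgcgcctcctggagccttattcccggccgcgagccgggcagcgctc
AREG, chr4:74444886-74445135, plus strand: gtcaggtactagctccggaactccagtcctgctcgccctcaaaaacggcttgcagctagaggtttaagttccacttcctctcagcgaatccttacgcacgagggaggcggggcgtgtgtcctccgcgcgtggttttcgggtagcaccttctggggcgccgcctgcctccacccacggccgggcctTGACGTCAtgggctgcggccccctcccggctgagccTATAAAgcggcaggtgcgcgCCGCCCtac
The HBEGF window was 76.4% G and C and held 5 matches to the GC box, of which the last 2 overlap by 1 base, and no match to any other motif searched. The AREG window was 65.2% G and C, with the CRE from 65 to 58 bases and the TATA box from 29 to 24 bases before the start. On both strands of 35116 RefSeq windows of the same length, 42.6% held the GC box, 10.7% TATAAA and 1.65% the CRE. Of the other motifs, AP-1 (TGANTCA, in 6.57% of windows) matched in IL11 from 96 to 90 bases before the start, and TATAAA also matched in EREG and GDF15. The GC box matched in every window but that of EREG, with up to 13 matches, in PDGFA. A loose string for the antioxidant response element (TGANNNNGC, in 35.2% of windows) matched in TGFA, FGF2 and GDF15. The matched letters were TGAACGGGC in TGFA, TGAGCAGGC in GDF15, and TGATGTCGC and TGACGCCGC in FGF2. The C/EBP-ATF composite (TGATGNAA, 3.14%) and the heat shock element (0.441%) matched in none of the 8 windows. The strings ACGTG (18.5%) and CCGGAAG (8.52%), single strict forms of the hypoxia response and ETS motifs, matched in none of them either. Other forms of these motifs were not searched for, so the windows may still hold them.

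The deposited values are normalized counts, that is, reads per gene divided by a size factor of the library. Library totals were 26435568 to 32085626 reads. Differences are log2 fold changes on log2(normalized count + 1) with their standard error (SE), from limma fitted over the 15230 genes whose mean reached 10, and a gene was called where its p, adjusted by Benjamini-Hochberg over all those genes, was 0.05 or less. For a single gene, an exact two-sided permutation test of 3 libraries against 3 cannot go below p = 0.1. Of the melanocyte-lineage markers, SOX10, MITF, DCT, S100B and S100A1 were present, while MLANA had no read in any library, which allows up to 3 reads in each, and TYR had at most 2.14, TYRP1 33.6 and PMEL 36.8 normalized counts. The summed level of the 9 lineage markers moved with treatment, from 22880 to 24659 normalized counts with DMSO to between 13658 and 17018 with VHL-r and between 12215 and 14591 with R4VPL3-1. Most of this shift was in SOX10, at a mean of 17547 with DMSO, 10200 with VHL-r and 8405 with R4VPL3-1, and in MITF, at 1722, 1047 and 1012. The means of DCT were 1347, 1261 and 1223, those of S100B 730.3, 677 and 642, and those of S100A1 2154, 2103 and 1963. The part of these shifts in the ligand results was not tested. Leukocyte markers summed to at most 11.8 and endothelial markers to at most 32.6 in any library. The summed dedifferentiated melanoma markers were 12968 to 14929 with DMSO, 11444 to 12528 with VHL-r and 11299 to 12356 with R4VPL3-1, and the keratinocyte markers 2207 to 2305, 2003 to 2203 and 1915 to 2064 in the same order. For both of these sums every DMSO library lay above every treated library, but single markers differed. AXL made up most of the dedifferentiated sum, at a mean of 10993 with DMSO, and its DMSO and VHL-r libraries overlapped. The means of NGFR and WNT5A were lower with both compounds, while those of SOX9 and EGFR were higher. KRT14 was lower in every treated library, while the DMSO and VHL-r libraries overlapped for KRT5 and KRT10. The part of these shifts in the ligand results was not tested either. The fibroblast markers summed to between 1403 and 3087, with overlapping groups.

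Compared per kilobase of annotated exon, so that genes of different length can be set side by side, TGFA had the highest level of the 10 in DMSO-treated cells, at 1477 ± 45.3 (SD, n = 3) normalized counts per kilobase, followed by LIF at 993.3 ± 280. FGF2 came next at 226.5 ± 21.6, ahead of HBEGF at 192.4 ± 14.9, IL11 at 169.3 ± 47.4 and GDF15 at 125.5 ± 20.7. The lowest FGF2 library, at 209.3, lay just above the highest HBEGF library, at 209.2. The ranges of HBEGF and IL11 overlapped, as did those of IL11 and GDF15, so their order is not set beyond the spread of the libraries. PDGFA at 53.4 ± 12.2, NRG1 at 29.5 ± 5.14, AREG at 15.6 ± 4.58 and EREG at 0.854 ± 0.215 followed, with no overlap between neighbours. The length used was that of all annotated exons merged over transcripts, 21372 bases for NRG1 against 4588 for PDGFA. Before this division NRG1 had the higher mean with DMSO, 631 normalized counts against 245 for PDGFA. The place of NRG1 therefore depends on that length, and the length of the transcripts present was not measured. With VHL-r, the HBEGF level per kilobase, from 374 to 404, lay above the LIF level, from 198 to 288. With R4VPL3-1, the LIF level per kilobase was 123 to 165, overlapping the level of IL11, at 150 to 185, and below that of FGF2, at 173 to 185. The compounds thus left TGFA as the ligand gene with the highest level, at 1205 ± 14.3 per kilobase with VHL-r and 1134 ± 70.1 with R4VPL3-1, while LIF fell from the second place.

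Against DMSO, VHL-r changed 6 of the 9 ligand genes that could be tested, 1 higher (HBEGF) and 5 lower (LIF, NRG1, PDGFA, FGF2 and TGFA). Of all 15230 genes tested, 19.8% were called in this comparison, 10.3% higher and 9.51% lower. R4VPL3-1 also changed 6 of 9 against DMSO, with HBEGF higher and LIF, PDGFA, NRG1, TGFA and FGF2 lower, beside 24.9% of all genes, 13.1% higher and 11.8% lower. These comparisons share the same DMSO libraries. The median log2 fold change of the 9 was -0.31 with VHL-r and -0.38 with R4VPL3-1, and that of all genes tested was -0.0045 and -0.0063. The ligand genes were chosen with earlier results of these data known, so their counts and medians are a description. Between the compounds, 1 of 9 was called, LIF, lower with R4VPL3-1, where 1.87% of all genes were called, 1.14% higher and 0.729% lower. In bulk RNA, fewer cells that make a transcript and less of it per cell cannot be told apart.

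**Figure D1:**
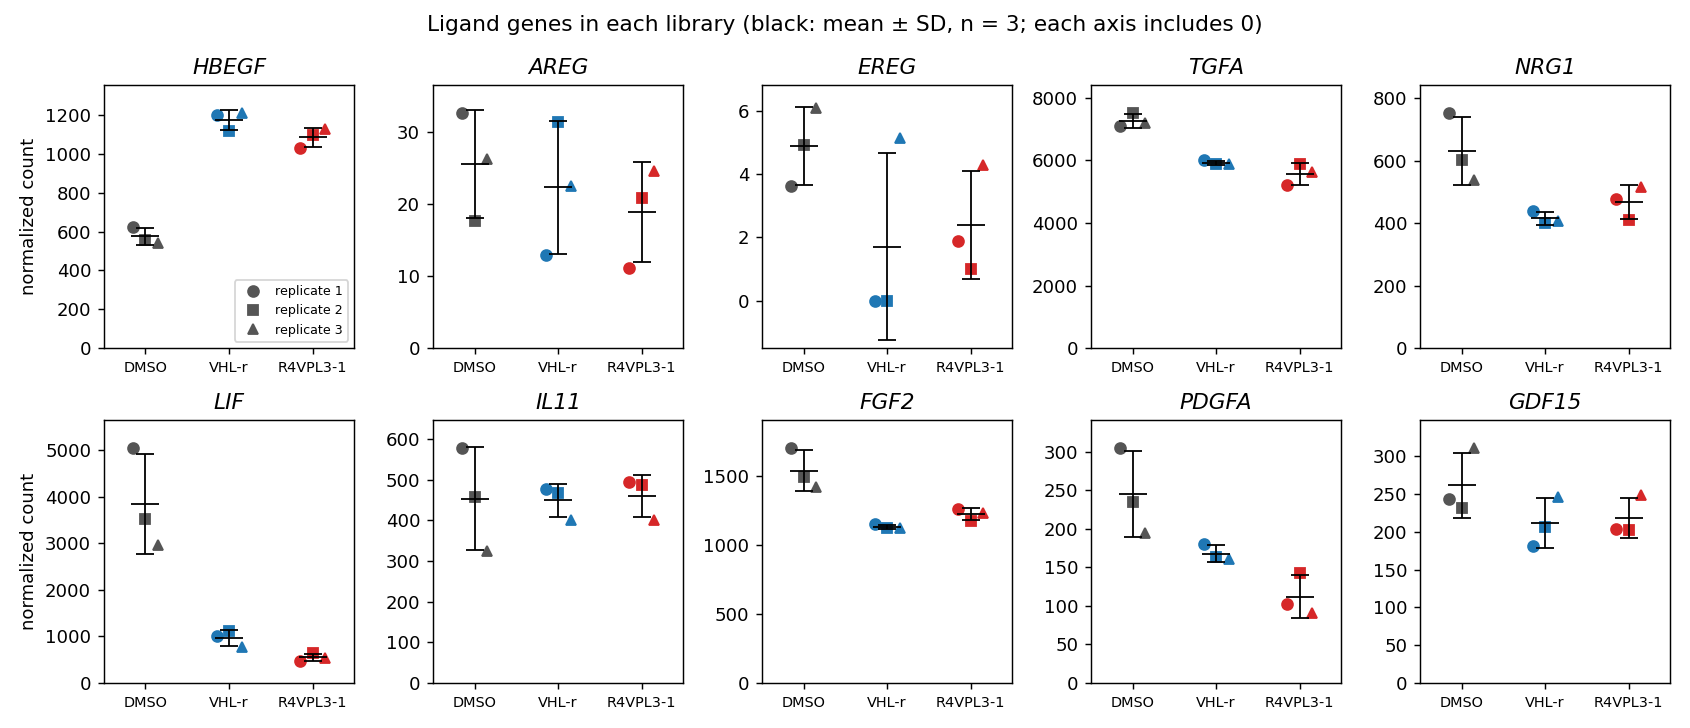
Normalized count (vertical axis) of each ligand gene in the 9 libraries, by treatment, with the marker shape giving the replicate number and the black bars the mean ± SD of 3 libraries. HBEGF is at least 1031 in every treated library and at most 626 in every DMSO library, LIF falls from at least 2958 to at most 1117 with VHL-r and 638 with R4VPL3-1, and the 3 groups overlap for AREG, IL11 and GDF15.

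Of the EGF-family ligands, HBEGF (ENSG00000113070, chromosome 5 from 140332843 to 140346603, minus strand) encodes heparin-binding EGF-like growth factor, a ligand of EGFR and ERBB4. Its values with DMSO were 626, 559 and 542 normalized counts for replicates 1, 2 and 3. With VHL-r they were 1201, 1118 and 1210, and with R4VPL3-1 they were 1031, 1099 and 1127. Every treated library lay above every DMSO library. HBEGF rose 2.04-fold with VHL-r (log2 fold change 1.03, SE 0.067, adjusted p = 5.5e-10) and 1.89-fold with R4VPL3-1 (0.92, SE 0.067, adjusted p = 1.7e-09). Among all genes tested these rises ranked 299th and 503rd from the highest. Between the compounds HBEGF differed by -0.12 (95% interval from -0.26 to 0.025, adjusted p = 0.64), which did not pass the test, and the interval does not reach the size of the change against DMSO.

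TGFA (ENSG00000163235, chromosome 2 from 70447284 to 70554193, minus strand) encodes TGF-alpha, another EGFR ligand. Its values were 7088, 7514 and 7188 normalized counts with DMSO, 6004, 5880 and 5884 with VHL-r, and 5204, 5886 and 5632 with R4VPL3-1. The DMSO libraries lay above all others, and the ranges of the compounds overlapped. The fall was small, by 0.29 on the log2 scale with VHL-r (SE 0.047, adjusted p = 9.0e-05) and by 0.38 with R4VPL3-1 (SE 0.047, adjusted p = 2.4e-06). TGFA and HBEGF, which share EGFR as receptor, therefore moved in opposite directions with each compound.

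NRG1 (ENSG00000157168, chromosome 8 from 31639222 to 32855666, plus strand) encodes neuregulin 1, the ligand of ERBB3 and ERBB4. Its values were 752, 603 and 537 normalized counts with DMSO, 438, 401 and 407 with VHL-r, and 477, 409 and 516 with R4VPL3-1. The DMSO libraries lay above all treated libraries. NRG1 fell by 0.59 on the log2 scale with VHL-r (SE 0.11, adjusted p = 0.00031) and by 0.42 with R4VPL3-1 (SE 0.11, adjusted p = 0.0047). Without DMSO replicate 1, the highest DMSO library for this gene, the R4VPL3-1 difference was -0.29 (adjusted p = 0.044). Of its annotated exon bases, 0.884% overlap another gene on the same strand, and reads there could not be assigned.

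AREG and EREG, both on chromosome 4, encode amphiregulin, an EGFR ligand, and epiregulin, a ligand of EGFR and ERBB4. AREG (ENSG00000109321, 74445136 to 74455005, plus strand) was low, at 32.7, 17.7 and 26.4 normalized counts with DMSO, 13.01, 31.5 and 22.5 with VHL-r, and 11.2, 20.9 and 24.6 with R4VPL3-1. The groups overlapped, and its log2 fold changes of -0.23 with VHL-r (95% interval from -0.95 to 0.50, adjusted p = 0.72) and -0.44 with R4VPL3-1 (from -1.17 to 0.28, adjusted p = 0.40) did not pass the test. These intervals are wide enough to hold a change of the size seen for NRG1. EREG (ENSG00000124882, 74365145 to 74388749, plus strand) was below the minimum for testing, with 4 to 6 reads per library with DMSO, 0 to 5 with VHL-r and 1 to 4 with R4VPL3-1. Whether it differed between the groups was not tested.

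LIF (ENSG00000128342, chromosome 22 from 30240453 to 30246759, minus strand) encodes leukemia inhibitory factor, an IL-6 family cytokine that signals through LIFR and gp130. Its values with DMSO were 5051, 3526 and 2958 normalized counts for replicates 1, 2 and 3. With VHL-r they were 1017, 1117 and 767, and with R4VPL3-1 they were 476, 638 and 525. The 3 groups did not overlap: every DMSO library lay above every VHL-r library, and every VHL-r library above every R4VPL3-1 library. LIF was 3.92-fold lower with VHL-r (log2 fold change -1.97, SE 0.15, adjusted p = 3.4e-09), the 12th lowest value of the 15230 genes. It was 6.90-fold lower with R4VPL3-1 (-2.79, SE 0.15, adjusted p = 8.9e-12), the 4th lowest. The widest spread was among the DMSO libraries, and without DMSO replicate 1 the log2 fold changes were -1.76 and -2.57.

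LIF was also the ligand gene that separated the compounds. It was 1.76-fold lower with R4VPL3-1 than with VHL-r (log2 fold change -0.82, SE 0.15, 95% interval from -1.12 to -0.51, adjusted p = 0.0021). This call was lost with the robust option of limma, at adjusted p = 0.28, and passed under the 19 other alternatives.

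IL11 (ENSG00000095752, chromosome 19 from 55364382 to 55370463, minus strand), which encodes the other gp130 cytokine of the group, gave a different picture. Its values were 578, 457 and 324 normalized counts with DMSO, 477, 469 and 401 with VHL-r, and 495, 487 and 400 with R4VPL3-1. The treated libraries all lay inside the range of the DMSO libraries. The log2 fold change was 0.021 with VHL-r (95% interval from -0.27 to 0.32, adjusted p = 0.95) and 0.055 with R4VPL3-1 (from -0.24 to 0.35, adjusted p = 0.82). These intervals do not reach the change of LIF with either compound.

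FGF2 (ENSG00000138685, chromosome 4 from 122826682 to 122898236, plus strand) encodes basic fibroblast growth factor, a mitogen for melanocytes. Its values were 1705, 1492 and 1424 normalized counts with DMSO, 1150, 1124 and 1125 with VHL-r, and 1259, 1174 and 1233 with R4VPL3-1. The groups did not overlap, and VHL-r gave the lowest values. FGF2 fell by 0.44 on the log2 scale with VHL-r (SE 0.063, adjusted p = 2.9e-05) and by 0.33 with R4VPL3-1 (SE 0.063, adjusted p = 0.00048). The difference between the compounds, 0.11 (95% interval from -0.023 to 0.24, adjusted p = 0.64), did not pass the test.

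PDGFA (ENSG00000197461, chromosome 7 from 497258 to 520296, minus strand) encodes the A chain of platelet-derived growth factor. Its values were 305, 235 and 195 normalized counts with DMSO, 180, 163 and 161 with VHL-r, and 102, 143 and 91.0 with R4VPL3-1. The groups did not overlap, in the order DMSO, VHL-r, R4VPL3-1. PDGFA was 2.18-fold lower with R4VPL3-1 than with DMSO (log2 fold change -1.12, SE 0.16, adjusted p = 2.3e-05). With VHL-r it fell by 0.52 on the log2 scale (SE 0.16, adjusted p = 0.028), and this call was lost without DMSO replicate 1 (-0.35, adjusted p = 0.18), DMSO replicate 2 (adjusted p = 0.064), VHL-r replicate 2 (0.091) or VHL-r replicate 3 (0.076). Between the compounds PDGFA differed by -0.61 (SE 0.16, adjusted p = 0.066), which missed the threshold. That difference was called without DMSO replicate 1 (adjusted p = 0.034), DMSO replicate 3 (0.040) or R4VPL3-1 replicate 2 (0.011), and when the DMSO libraries were left out of the fit (0.043).

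GDF15 (ENSG00000130513, chromosome 19 from 18374731 to 18389176, plus strand) encodes growth differentiation factor 15, which many stress pathways induce. Its values were 243, 231 and 311 normalized counts with DMSO, 181, 206 and 247 with VHL-r, and 204, 202 and 249.45 with R4VPL3-1. The ranges overlapped, and the treated means were below the DMSO mean. Neither the difference with VHL-r (-0.31, 95% interval from -0.58 to -0.032, adjusted p = 0.12) nor that with R4VPL3-1 (-0.25, from -0.53 to 0.022, adjusted p = 0.18) passed the test. Without VHL-r replicate 3 the VHL-r difference was called, at -0.43 (adjusted p = 0.038). Both intervals end below the change of HBEGF, the ligand gene that rose.

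**Figure D2:**
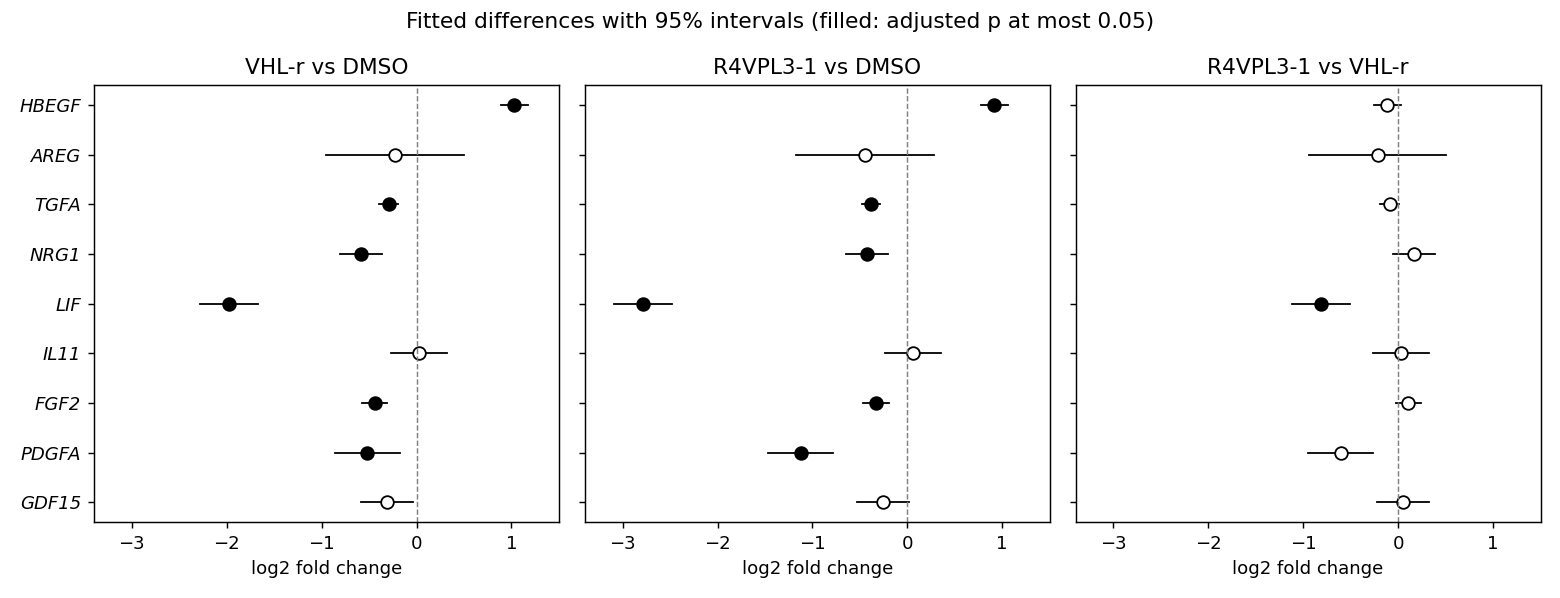
Log2 fold change (horizontal axis) of the 9 tested ligand genes in the 3 comparisons, with 95% intervals from limma as lines and filled points for an adjusted p of at most 0.05. HBEGF is the filled point above 0 in both comparisons with DMSO, LIF lies lowest at -1.97 and -2.79, and LIF alone is filled between the compounds.

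The DMSO libraries differed among themselves for several of these genes. DMSO replicate 1 was the highest of the 3 DMSO libraries for 7 of the 9 tested ligand genes and for 37.3% of all genes tested, and in the deposited table its column lacks the time that the names of both other control columns carry. Without it, HBEGF still rose by 1.09 and 0.98 on the log2 scale with VHL-r and R4VPL3-1, and of the called differences of single ligand genes against DMSO only that of PDGFA with VHL-r was lost. For 6 of the 9 genes, however, the DMSO values fell in the order of replicates 1, 2 and 3. Leaving out replicate 1 therefore does not take away all of this spread.

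**Figure D3:**
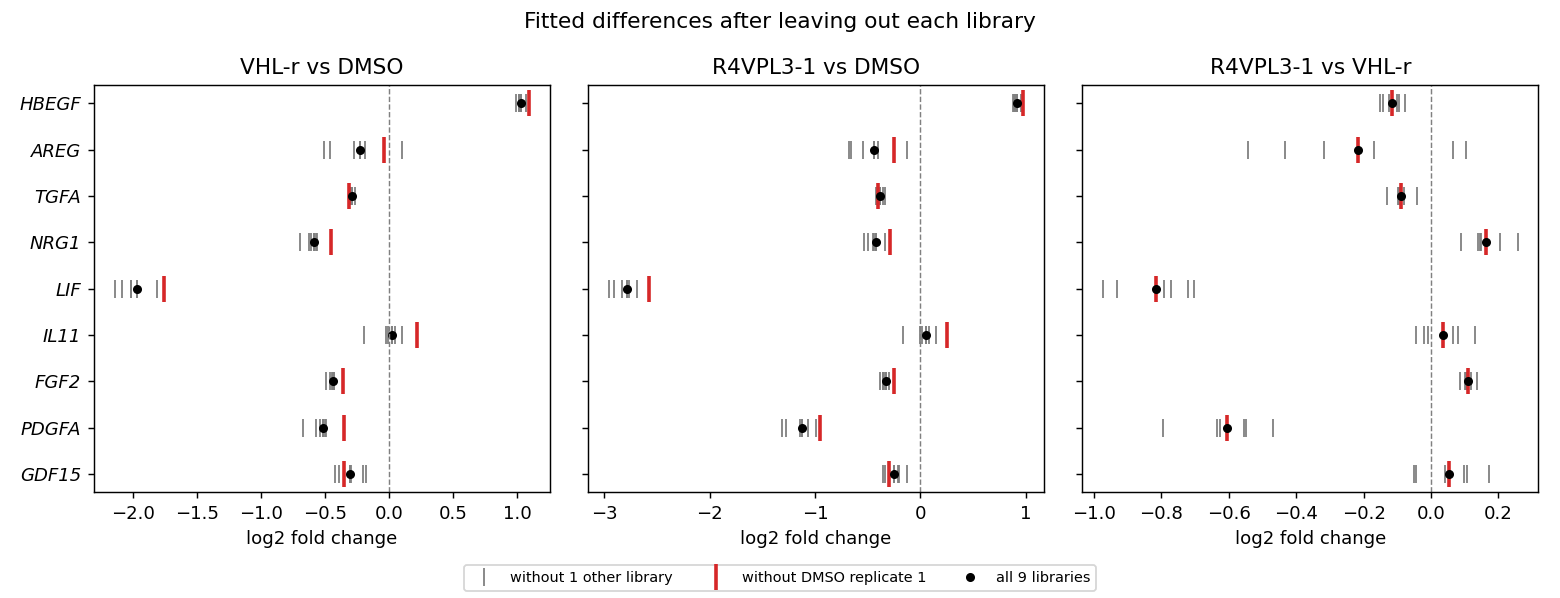
Log2 fold change (horizontal axis, with its own range in each panel) of the 9 tested ligand genes with all 9 libraries (dots) and after leaving out each library in turn (ticks; red, without DMSO replicate 1). The red ticks of LIF, NRG1, FGF2 and PDGFA lie nearer to 0 than the dots in both comparisons with DMSO, and AREG and IL11 have ticks on both sides of 0 with VHL-r.

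The ligands act within a wider system, and 79 other genes of it were followed: 34 other ligands, 15 receptors, 12 genes of shedding and processing and 18 feedback regulators. Of these, 60 passed the minimum. With VHL-r 12 were higher and 17 lower than with DMSO, with R4VPL3-1 11 were higher and 20 lower, and between the compounds 1 was higher and 6 were lower with R4VPL3-1. Over all genes tested, the shares higher and lower were 10.3% and 9.51% with VHL-r, 13.1% and 11.8% with R4VPL3-1, and 1.14% and 0.729% between the compounds. FGF18, FGF22 and FGFR2 are in these counts, although they reached the minimum only through the treated groups. The lists were written with results of these data known, so their counts are a description.

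Of the 20 tested other ligands, 4 were higher and 5 lower with VHL-r, and 4 were higher and 4 lower with R4VPL3-1, where 19.8% and 24.9% of all genes were called in either direction. INHBA, the activin A subunit, was the one with the largest fall of those tested, from 2262, 1862 and 1485 normalized counts with DMSO to 605, 636 and 612 with VHL-r and 671, 640 and 620 with R4VPL3-1 (log2 fold changes -1.57 and -1.52, SE 0.098, adjusted p = 2.9e-10 and 2.5e-10). The vascular growth factor VEGFC fell by 0.61 and 0.51 on the log2 scale and TGFB2 by 0.76 and 0.69, where 22.7% of the exon bases of TGFB2 overlap another gene on the same strand. PGF, placental growth factor, rose by 0.76 and 0.95. FGF18 and FGF22 had few reads and reached the minimum for testing only through the treated groups, where they were high, so their calls are given as a description. FGF18 had 2.72 to 9.13 normalized counts with DMSO, 18.9 to 28.0 with VHL-r and 23.6 to 33.6 with R4VPL3-1. FGF22 had 3.04 to 5.90, 7.17 to 17.9 and 17.1 to 26.1, and its call with VHL-r was lost under 9 of 19 alternatives (adjusted p up to 0.20 without DMSO replicate 1 or 3, VHL-r replicate 1 or 2 or R4VPL3-1 replicate 2). CLCF1, another gp130 cytokine, was lower with VHL-r at 8.19 to 14.01 against 21.6 to 26.4 normalized counts, with an adjusted p of 0.048, and 11 of 19 alternatives lost this call (adjusted p up to 0.17 without any 1 of the DMSO or VHL-r libraries or R4VPL3-1 replicate 2). IL6, the namesake of the LIF family, had few reads in every group and was left untested by the same minimum. Its values were highest with DMSO, at 8.85 to 13.2 normalized counts, against 0 to 2.05 with VHL-r and 2.14 to 4.97 with R4VPL3-1. VEGFA, chosen after its values were seen, was the ligand gene outside the 10 that was higher with R4VPL3-1 than with VHL-r, at 1975 to 2298 against 1519 to 1609 normalized counts (adjusted p = 6.1e-05).

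Of the 11 tested receptor genes, 4 were higher and 1 lower with each compound, beside 10.3% higher and 9.51% lower of all genes with VHL-r and 13.1% and 11.8% with R4VPL3-1. Of the FGF receptor genes, FGFR1 and FGFR3 rose with both compounds. FGFR1 went from 838, 800 and 708 normalized counts with DMSO to 1141, 1125 and 1049 with VHL-r and 1125, 1148 and 1023 with R4VPL3-1 (log2 fold changes 0.50 and 0.49, SE 0.070). FGFR3 rose by 0.76 and 0.71 on the log2 scale. FGFR4 was not called in any comparison, at 670.0 to 688 normalized counts with DMSO, 702 to 738 with VHL-r and 627 to 722 with R4VPL3-1. FGFR2, which had 4.54 to 7.87 normalized counts with DMSO and reached the minimum for testing through the treated groups, was called higher, but 10 and 13 of 19 alternatives lost those calls (adjusted p up to 0.17 without DMSO replicate 1 or 3, any VHL-r library or R4VPL3-1 replicate 2 and, for R4VPL3-1, also without its replicate 1 or 3). Of the ERBB receptor genes, ERBB3 and EGFR are given, both chosen after their values were seen. ERBB3, the receptor of NRG1, fell by 0.32 on the log2 scale with R4VPL3-1 (SE 0.077, adjusted p = 0.0041, and 0.065 with the robust option of limma). With VHL-r it fell by 0.24 (adjusted p = 0.032, up to 0.19 on leaving out DMSO replicate 2 or 3 or replicate 1 or 2 of VHL-r). This VHL-r call was also lost with the robust option and with DESeq2, with adjusted p up to 0.20 over the alternatives. EGFR, the receptor of HBEGF, TGFA, AREG and EREG, was higher with R4VPL3-1 by 0.31 (adjusted p = 0.015, up to 0.085 on leaving out DMSO replicate 2 or replicate 1 or 2 of R4VPL3-1), and was not called with VHL-r, at 479 to 549 normalized counts against 454 to 493 with DMSO. The gp130 gene IL6ST had 5515 to 5687 normalized counts with DMSO, 5608 to 5999 with VHL-r and 5275 to 5778 with R4VPL3-1. LIFR, the other receptor gene of LIF, was added after its values were seen. It was called higher with VHL-r, by 0.27 on the log2 scale (SE 0.067, adjusted p = 0.0060). With R4VPL3-1 its difference of 0.17 was not called (adjusted p = 0.073). IL11RA and GFRAL, the receptor genes of IL11 and GDF15, had no read in any of the 9 libraries, which allows up to 3 reads in each. For IL11RA, 32.5% of the exon bases overlap another gene on the same strand, and reads there could not be assigned. The bound of 3 reads covers only reads that could be assigned, so it does not show that IL11RA was absent.

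Of the 12 genes of ligand shedding and processing, 1 was higher and 2 lower with VHL-r, and 1 was higher and 5 lower with R4VPL3-1, beside 19.8% and 24.9% of all genes called in either direction. With VHL-r the share of these genes was near that of all genes. ADAM17, the main sheddase of EGF-family precursors, was not called and had 1454 to 1619 normalized counts with DMSO, 1411 to 1457 with VHL-r and 1312 to 1501 with R4VPL3-1. ADAM8, a related protease, rose by 0.70 on the log2 scale with VHL-r (adjusted p = 0.0048) and by 0.56 with R4VPL3-1 (adjusted p = 0.018, up to 0.11 without DMSO replicate 1 or 2 or R4VPL3-1 replicate 1 or 2). RHBDF1, which encodes the ADAM17 partner iRhom1, and TIMP3, an inhibitor of ADAM17, were both chosen after their values were seen and fell with both compounds. RHBDF1 fell by 0.34 with VHL-r (adjusted p = 0.00047) and by 0.31 with R4VPL3-1 (adjusted p = 0.0011). TIMP3 fell by 0.24 with VHL-r (adjusted p = 0.0086, up to 0.061 on leaving out replicate 1 or 2 of VHL-r) and by 0.30 with R4VPL3-1 (adjusted p = 0.0011).

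Of the 17 tested feedback regulators, 3 were higher and 9 lower with VHL-r, and 2 were higher and 10 lower with R4VPL3-1. Of all genes, 10.3% were higher and 9.51% lower with VHL-r, and 13.1% and 11.8% with R4VPL3-1. With R4VPL3-1, the genes with the largest falls were DUSP6, SPRY2, SPRY4 and DUSP4. They encode dual-specificity phosphatases and Sprouty proteins, which ERK activity induces and which restrain ERK signaling. DUSP5, another dual-specificity phosphatase gene, chosen after its values were seen, went the other way and rose by 0.34 on the log2 scale with VHL-r (adjusted p = 0.0054) and by 0.31 with R4VPL3-1 (adjusted p = 0.0088, up to 0.069 on leaving out DMSO replicate 3 or R4VPL3-1 replicate 2). SPRY2 had 7272, 7324 and 7214 normalized counts with DMSO, 4182, 4094 and 4218 with VHL-r, and 2154, 2610 and 2600 with R4VPL3-1. SPRY4, DUSP4 and DUSP6 kept the same order, DMSO above VHL-r above R4VPL3-1, with no overlap. Against VHL-r, R4VPL3-1 lowered SPRY2 by a log2 fold change of -0.77 (SE 0.058, adjusted p = 2.0e-08), SPRY4 by -0.58, DUSP4 by -0.35 and DUSP6 by -1.49 (adjusted p from 5.7e-10 to 0.00044). SPRY1 was lower against DMSO, by -1.07 with VHL-r and -0.64 with R4VPL3-1, as were LRIG3, at -0.55 and -0.40, and SOCS2, at -0.87 for both. SOCS3, a STAT3-induced inhibitor of gp130 signaling, went the other way from LIF with VHL-r and rose by 0.53 on the log2 scale (SE 0.088, adjusted p = 0.00016). SOCS3 and the syndecan gene SDC4 were the other genes called lower with R4VPL3-1 than with VHL-r, by 0.35 and 0.25, and both calls depended on single libraries. That of SOCS3 was lost (adjusted p up to 0.29) on leaving out R4VPL3-1 replicate 1 or 2, or replicate 2 or 3 of VHL-r. That of SDC4 was lost (up to 0.22) without DMSO replicate 2, any VHL-r library or R4VPL3-1 replicate 1 or 3. Both were also lost when genes below the minimum were kept in the fit, and that of SDC4 with the robust option.

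**Figure D4:**
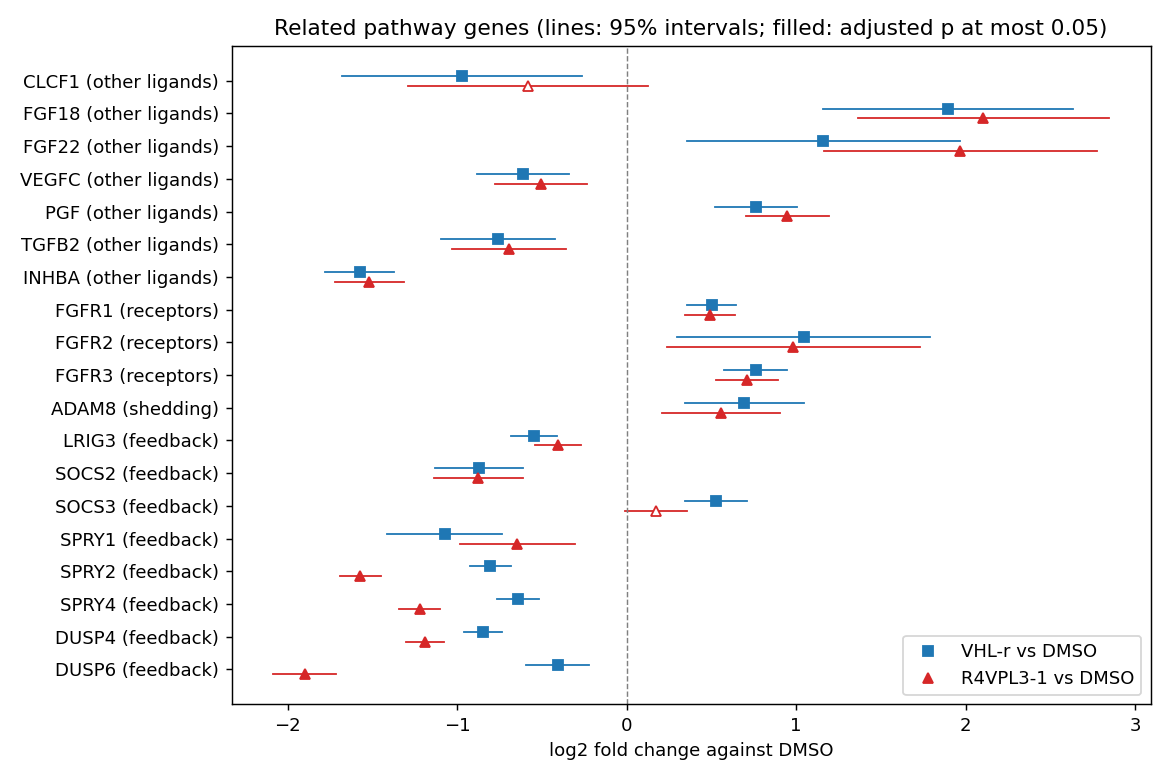
Log2 fold change against DMSO (horizontal axis) of the pathway genes called with a change of at least 0.5 on the log2 scale in any comparison, for VHL-r (squares) and R4VPL3-1 (triangles), with 95% intervals and filled points for an adjusted p of at most 0.05. FGF18, FGF22, PGF, FGFR1, FGFR2 and FGFR3 lie above 0, and the feedback genes other than SOCS3 lie below 0, with SPRY2, SPRY4, DUSP4 and DUSP6 further below 0 for R4VPL3-1.

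The genes most like a ligand gene in pattern were taken for the 3 ligand genes with the largest range of group means, by the root-mean-square difference of the centred log2 values over the 9 libraries. For LIF they were RIPK4 (difference 0.22), PRDM1 (0.26) and CXCL1 (0.27). RIPK4 had a mean of 1442 normalized counts with DMSO, 351 with VHL-r and 215 with R4VPL3-1. For PDGFA they were CCN2 (0.12), CCN1 (0.15) and ESM1 (0.16), and for HBEGF they were STK17B (0.063), CNNM4 (0.086) and TUFT1 (0.088). CCN2 and CCN1 encode secreted matricellular proteins, CXCL1 a chemokine and ESM1 a secreted proteoglycan.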

How the data were processed

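RNA-seq of A375R cells was used, with 3 libraries each for DMSO, VHL-r and R4VPL3-1. The authors aligned single strand-specific reads to GRCh38 with STAR, counted them per gene with htseq-count and deposited a normalized signal, reads divided by a DESeq2 (1.36.0) size factor. htseq-count leaves out reads on exons shared by genes of the same strand. Division by the worth of 1 read gave back whole reads for at least 99.978% of values, within 0.0051.

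limma 3.58.1 (R 4.3.3, trend option) was fitted to log2(value + 1) of all 9 libraries in a single-factor model, over the 15230 genes whose mean reached 10. Adjusted p-values run over all of them. On those whole reads, edgeR 4.0.16 and DESeq2 1.42.0 were run as alternatives, with other pseudocounts, filters, scalings, limma's robust option, a replicate block, the compared libraries alone and each library left out.

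The members and lists were chosen with earlier results of these data known. Other pathway genes were named where called with a log2 fold change of at least 0.5 in any comparison, beside a few examples. Exon lengths came from GENCODE 44, which matched 62639 of 62710 genes. The GC box was searched for after the other motifs had been seen. p-values measure the spread between these libraries only.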

Additional observations from a re-analysis of the deposited data

How the results depend on the processing

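Of 536 log2 fold changes of single ligand genes under alternatives, 510 kept their direction and side of the threshold, 5 lost a call, 7 gained one, and 14 changed sign, all 14 for AREG, IL11 and GDF15, none of which was called. The called differences of HBEGF, TGFA, NRG1, FGF2 and LIF against DMSO and of PDGFA with R4VPL3-1 passed under every alternative run. IL11 with VHL-r against DMSO was -0.014 with edgeR and -0.015 with DESeq2. On leaving out each library, it ranged from -0.20 to 0.22 with VHL-r against DMSO, from -0.17 to 0.25 with R4VPL3-1 against DMSO, and from -0.044 to 0.13 between the compounds. AREG ranged from -0.51 to 0.098 with VHL-r against DMSO and from -0.54 to 0.10 between the compounds, and GDF15 from -0.051 to 0.17 between the compounds. Between the compounds the ligand genes called were 0 with limma's robust option, 2 with only the 6 libraries compared and 1 to 2 on leaving out each library, and the genes called among all were 182 to 358 on leaving out each library, lowest without R4VPL3-1 replicate 1. The cause was not tested. Correlations of deviations ran from -0.00559 to 0.121 for the same replicate numbers and from -0.148 to 0.0982 for different ones. The ranges overlapped, but the same-number values were mostly positive and the different-number values more often negative. Whether the replicate numbers pair the samples was therefore not settled. The replicate block gave 2 ligand genes between the compounds, PDGFA at an adjusted p of 0.016 beside LIF, and added GDF15 with VHL-r against DMSO at 0.027. Rescaling moved the median of all genes by less than 0.1. Of 1093 values of pathway genes, 1018 were kept and 75 lost their call. Depth limited EREG, AREG and the pathway genes with few reads.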
